A study of Homo sapiens with 3 samples.

Results

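The insulin-like growth factor (IGF) axis was followed across 3 arrays of RH30 cells, an alveolar rhabdomyosarcoma cell line that carries the PAX3-FOXO1 fusion. Members were the probe sets that name 1 gene only, from a list of 10 genes: the ligand IGF2 and its imprinted neighbour H19, the receptors IGF1R and IGF2R, the binding proteins IGFBP2, IGFBP3, IGFBP4 and IGFBP5, and the adaptors IRS1 and IRS2. This gave 17 of 22277 probe sets, for 8 of the 10 genes, out of 11963 genes that a probe set names singly. No probe set names IGF2 by itself. The 3 that name IGF2 also name INS-IGF2, a readthrough gene that shares its sequence, so their signal cannot be assigned to 1 of the 2 genes, and they are counted apart from the members throughout. No probe set names H19, so its signal was not followed, and only the sequence around its start was searched for motifs. Bulk RNA cannot tell a transcript carried by fewer cells from less of it per cell.

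The 3 conditions were untreated cells, cells given a mutated PNA at 10 µM, and cells given an anti-MYCN PNA at 10 µM, with RNA taken at 12 hours. A PNA (peptide nucleic acid) carries DNA bases on a peptide-like chain and pairs with DNA or RNA. The anti-MYCN PNA is directed against the MYCN gene and the mutated one is described as inactive. All 3 cultures are of 1 cell line in medium with foetal bovine serum, which itself contains growth factors, and each condition has 1 array, so no value has a replicate error and no difference has a test. The array titled untreated carries a source name that says mutated PNA, so every direction between the 2 controls rests on its title.

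In IGF signalling, IGF2 and IGF1 bind the receptor tyrosine kinase IGF1R, which phosphorylates the docking proteins IRS1 and IRS2 and so reaches the PI3K and ERK cascades. IGF2R, the mannose 6-phosphate receptor, takes IGF2 to the lysosome. The IGF binding proteins hold the ligands outside the cell and can either limit or prolong their action. IGF2 is normally expressed from the paternal and H19 from the maternal allele, and in rhabdomyosarcoma IGF2 is a known autocrine growth factor.

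The sequences before the start sites are shown because the canonical E-box CACGTG is the motif that MYC-family proteins bind with MAX. Windows of 250 bases before to 50 bases after each annotated start, from RefSeq (GRCh38.p14), were found for 9 of the 10 listed genes, and for all 8 genes with a probe set of their own. CACGTG, which reads the same on both strands, was present in 2 of them. IGF2R had 3 copies, at positions -132, -74 and -28 from the start, and IRS1 had 1, at 35 bases after it. The 250 bases before the IGF2R start are chr6:159968832-159969081 on the plus strand, and the IRS1 stretch is chr2:226799771-226799797 on the minus strand, both with CACGTG in capitals.
IGF2R: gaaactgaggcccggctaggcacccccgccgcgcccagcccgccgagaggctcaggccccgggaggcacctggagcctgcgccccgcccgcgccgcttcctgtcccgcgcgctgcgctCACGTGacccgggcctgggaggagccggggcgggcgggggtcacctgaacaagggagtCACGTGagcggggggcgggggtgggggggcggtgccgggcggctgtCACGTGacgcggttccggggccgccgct
IRS1: cggaggctccgtCACGTGtttttctcc
Among 35116 windows of all genes 7.26% held CACGTG, and 33 windows, or 0.094%, held 3 or more. The variant CGCGTG, searched on both strands, occurred 3 times in the IGF1R window and once in that of IRS1, and 11.4% of all windows held it. Over the 8537 windows of genes past the signal filter the shares were higher, at 9.93% for CACGTG, 0.164% for 3 or more copies of it and 17.7% for CGCGTG. A second variant, CATGTG, also searched on both strands, occurred once in the IRS2 window, against 11.1% of all and 7.31% of those past the filter. None of the 3 motifs was in the windows of IGFBP2, IGFBP3, IGFBP4, IGFBP5 or H19.

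By its brightest probe set MYCN itself, the targeted gene, read 3313 untreated, 2804 with mutated PNA and 2202 with anti-MYCN PNA. The log2 difference of anti-MYCN PNA was -0.35 to mutated PNA and -0.59 to untreated, and mutated PNA minus untreated was itself -0.24. No background of like signal was taken for MYCN. All 24 probe sets for the poly-A spikes, which are added before labelling, were lower on the anti-MYCN PNA array, with a median ratio of 0.410 to untreated and 0.382 to mutated PNA. The ratio of 3′ to 5′ ACTB signals was 2.11, 1.73 and 1.99 in the same order, and that of GAPDH 1.02, 1.02 and 1.09. The part of these array differences in the values below was not tested. Of 14 listed muscle markers 13 had a probe set and 7 passed the signal filter, among them MYOD1 at 6715, 6266 and 7834. Of all 11963 genes 6745 passed the filter, so this count alone does not show a muscle identity. Of the 7 muscle markers 4 lay above both controls and 0 below, against 47.9% and 37.6% of all genes. DES, at 911, 923 and 1609, and CDH15, at 492, 379 and 943, were at least 1.5-fold above both, as were 8.27% of all genes. MYOG, CHRNA1 and MEF2C lay between the controls. The summed signal of the 7 was 31470, 33681 and 43676, of which ACTC1 alone gave 17091, 19864 and 27505. Of the markers of other lineages, 3 of 12 fibroblast, 1 of 10 epithelial, 0 of 11 leukocyte, 1 of 9 endothelial and 1 of 9 neuronal genes passed it. The neuronal one, TUBB3, was about as bright as MYOD1, at 7071, 6127 and 6401. The summed signal of the fibroblast markers that passed was 763, 848 and 819. Within that sum FBLN1 was 2.07 and 1.81 times the untreated and mutated PNA signals, and COL3A1 and PDGFRA read below both controls. ENG, the endothelial marker that passed, read 205, 196 and 458, and so was at least 2-fold above both controls; its part in the values below was not tested.

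Signals are MAS5 values on a linear scale. Probe sets passed the filter when their mean over the 3 arrays was at least 117, and signals below a floor of 23.4 were set to it before log2 was taken. A probe set was counted as apart from both controls when it was at least 2-fold higher than both, or at least 2-fold lower than both. For each probe set the 300 probe sets of nearest mean signal serve as background, and their control range is the log2 difference between the 2 controls that 95% of them stayed within. The anti-MYCN PNA array differed more from either control than the controls did from each other. Over all genes the 95% limit was 0.57 between the controls, 1.02 against untreated and 1.00 against mutated PNA. A difference beyond the control range is thus not by itself unusual for that array.

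Of the 3 probe sets that name IGF2 with INS-IGF2, 2 gave the largest differences from both controls in the axis among those that passed the filter. The accession behind 202410_x_at is an IGF2 transcript in the RefSeq gene table, and those behind 202409_at and 210881_s_at matched no gene in it. The signal of 202410_x_at was 2587 untreated, 1917 with mutated PNA and 6376 with anti-MYCN PNA. That is 2.46 times the untreated and 3.33 times the mutated PNA signal, while mutated PNA minus untreated was -0.43 on the log2 scale. The 2 controls thus differed beyond the control range of 0.36, as 4% of the 300 neighbours did by as much. 210881_s_at read 1557, 1187 and 4275 in the same order, which is 2.75 times untreated and 3.60 times mutated PNA. Its controls differed by -0.39, also beyond the control range of 0.36, and 3% of its neighbours differed by as much. The ratios to mutated PNA therefore rest on the lower of 2 unlike controls. Both probe sets were at least 2-fold above both controls, as were 1.18% of the 9899 probe sets past the filter that name 1 gene. Among the 300 probe sets of like signal, none was 2-fold higher than both controls in either case, and the median difference to the mean of the controls was -0.02 and -0.06. The suffix _x_at marks a probe set with probes that match other transcripts, and _s_at one that can match several transcripts.

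The brightest of the 3, 202409_at, differed less. It read 15883 untreated, 14580 with mutated PNA and 23033 with anti-MYCN PNA, or 1.45 and 1.58 times the controls. Bright signals were higher on this array as a whole. The 300 probe sets nearest in mean signal spanned a wide range here, from 8079 to 34942. Of them 78.3% read highest on this array, their median difference was 0.27, and 13.7% lay as far above both controls. Under quantile normalization the log2 difference of 202409_at to the nearer control was 0.16, against 0.54 as reported, whereas 202410_x_at stood at 1.31 and 210881_s_at also stayed past 2-fold. Under median scaling the pair stood at 1.10 and 1.26. All 3 probe sets were lowest in mutated PNA and highest in anti-MYCN PNA cells. Their sizes disagree, and which of them follows the IGF2 transcript was not tested.

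**Figure D1:**
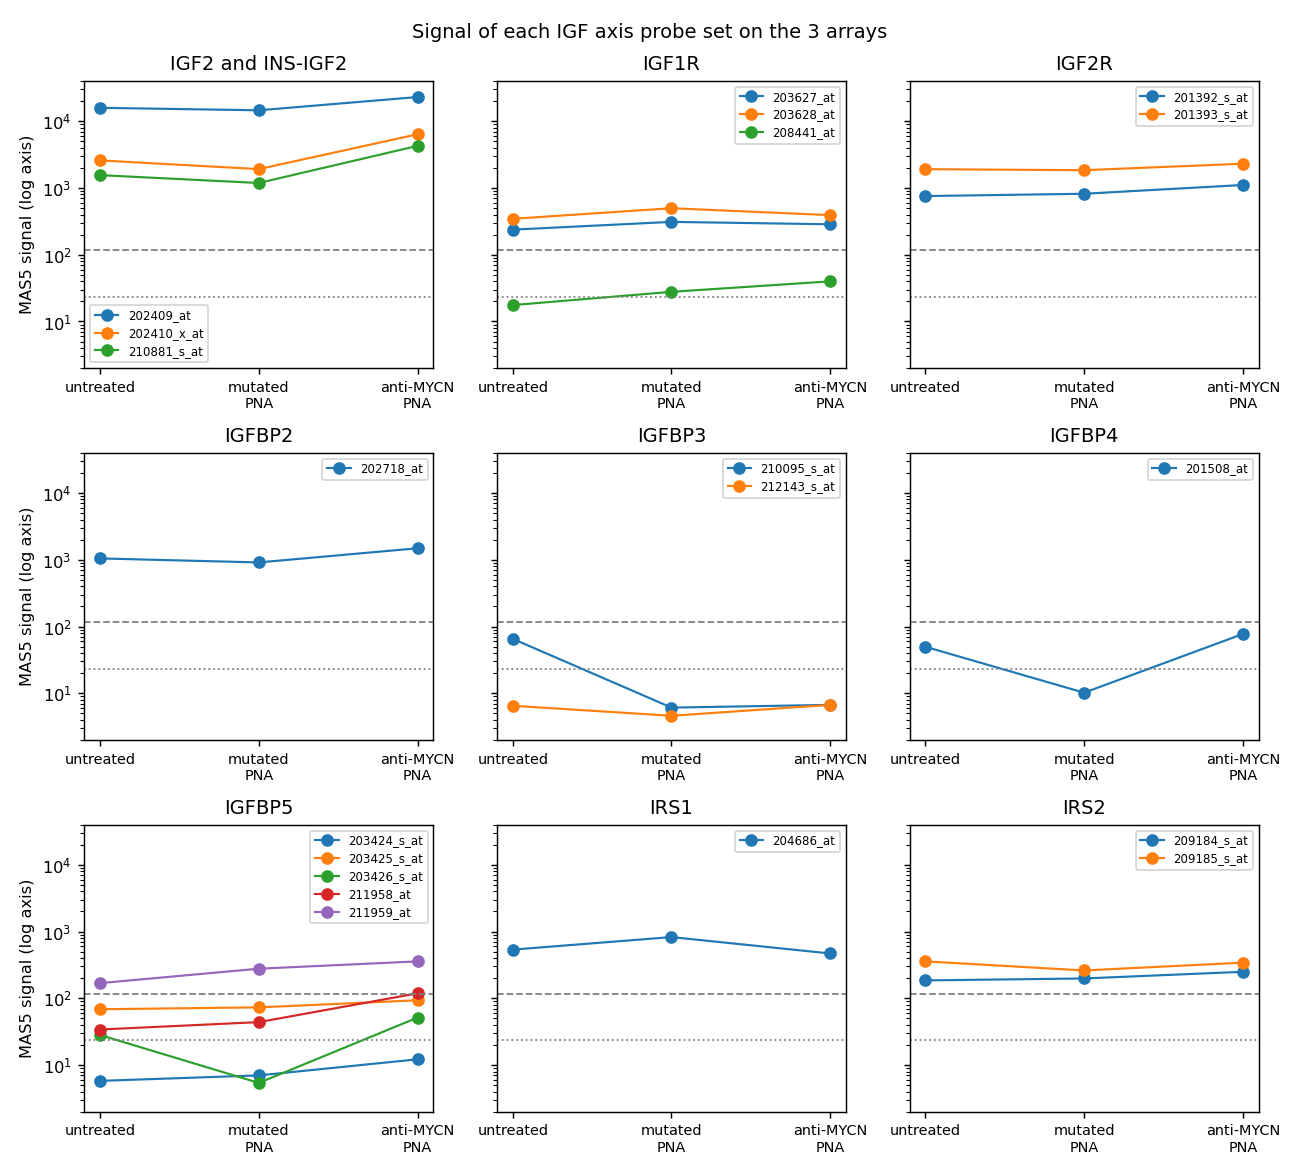
MAS5 signal (log axis) of every probe set on the 3 arrays, 1 panel per gene, with 1 point per array; the dotted line is the floor of 23.4 and the dashed line the filter of 117. The lines of IGF2 with INS-IGF2 end highest on the anti-MYCN PNA array, at 23033, 6376 and 4275, while those of IGFBP3 and IGFBP4 stay below the filter.

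Of the 17 member probe sets, 9 passed the filter, for 6 genes: IGF1R, IGF2R, IGFBP2, IGFBP5, IRS1 and IRS2. None of the 9 was 2-fold above both controls and none 2-fold below, against 1.18% and 1.64% of all probe sets past the filter. At 1.5-fold the counts were again 0 and 0, against 8.07% and 8.06%. The anti-MYCN PNA array read highest in 5 of the 9, against 45.8% of all. The median difference of the 9 from the controls' mean was 0.30 on the log2 scale, and 0.04 for all 9899. A further 2 members read under the floor on all 3 arrays, 4 on some of them, and the remaining 2 that failed the filter on none.

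IGF1R, the signalling receptor, read 345 untreated, 497 with mutated PNA and 392 with anti-MYCN PNA by 203628_at. Its second probe set, 203627_at, read 238, 311 and 286. Both were highest in mutated PNA and lowest in untreated cells. The log2 differences of anti-MYCN PNA to mutated PNA were -0.34 and -0.12, and those to untreated 0.18 and 0.27. The control ranges at these signals were 0.60 and 0.68, so all 4 lay within them. The remaining one, 208441_at, was dim at 17.6, 27.8 and 39.9.

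IGF2R, the clearing receptor with 3 E-boxes before its start, read highest on the anti-MYCN PNA array by both of its probe sets. 201393_s_at gave 1911 untreated, 1847 with mutated PNA and 2310 with anti-MYCN PNA. 201392_s_at gave 756, 819 and 1108, or 1.47 times untreated and 1.35 times mutated PNA. The log2 difference of 0.55 to untreated lay beyond the control range of 0.44, that of 0.44 to mutated PNA just within it. Both differences of 201393_s_at, 0.27 and 0.32, lay inside its range of 0.45. Across the 791 measured genes with CACGTG in their window the median difference to the mean of the controls was 0.06, as it was across the 4897 without. For the 12 genes with 3 or more copies it was 0.23, but these are few and include IGF2R itself. The shares 2-fold higher were 0.76% with CACGTG, 1.14% without and 0% of the 12. Those 2-fold lower were 1.14%, 1.29% and 0%. An effect of the motif was not tested.

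Among the binding proteins, 2 of 9 probe sets passed the filter, 1 for IGFBP2 and 1 for IGFBP5. IGFBP2, a carrier abundant in fetal serum and in many tumours, read 1047 untreated, 912 with mutated PNA and 1487 with anti-MYCN PNA. It was the one member past the filter whose differences to both controls, 0.51 and 0.71, exceeded the control range, which was 0.42. They lay within the limits of 1.02 and 1.00 that held 95% of all genes against those controls. Of the 300 probe sets of like signal, 23 lay as far above both controls. Its difference is therefore under 1.5-fold against untreated and above it against mutated PNA.

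IGFBP5, a binding protein made by differentiating myoblasts, was measured by 5 probe sets, and the 4 that exceeded the floor on any array were highest on the anti-MYCN PNA array. The one past the filter, 211959_at, read 169 untreated, 278 with mutated PNA and 357 with anti-MYCN PNA. Against untreated this was 2.12-fold and against mutated PNA 1.29-fold, and mutated PNA was itself 1.64-fold above untreated. The control range at this signal was 0.65. The log2 difference of 0.36 to mutated PNA was inside it, and those of anti-MYCN PNA and mutated PNA to untreated, 1.08 and 0.72, were outside. 211958_at read 34.1, 44.0 and 119, which made it the one member at least 2-fold above both controls, with no filter applied. Among all probe sets without a filter 4.99% were, and among its 300 neighbours of like signal 12.0%. 203425_s_at read 68.6, 73.2 and 93.5, 203426_s_at read 28.2, 5.4 and 51.4, and 203424_s_at stayed under the floor at 5.8, 7.0 and 12.2. The 3 that stayed above the floor shared 1 order, from untreated over mutated PNA to anti-MYCN PNA. The probe sets share 1 gene and the same 3 RNA samples and are not independent.

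IGFBP3 and IGFBP4 were near or under the floor. IGFBP3, the main carrier in adult serum and a p53 target, read 65.4 in untreated cells and 6.1 and 6.7 on the PNA arrays by 210095_s_at, so untreated was at least 2.79-fold above the floor that stands for both. Its second probe set, 212143_s_at, read 6.5, 4.6 and 6.7 and does not show that difference. IGFBP4, which mostly inhibits IGF action, read 49.7, 10.2 and 77.3 by its only probe set. At such signals the control range was 1.19 for 210095_s_at and 1.48 for IGFBP4.

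The adaptors differed from each other. IRS1, the main docking protein of IGF1R, read 537 untreated, 827 with mutated PNA and 470 with anti-MYCN PNA. It was the only member past the filter to read lowest on the anti-MYCN PNA array. The mutated PNA array stood out, at 1.54 times untreated, while anti-MYCN PNA was 0.568 of mutated PNA and 0.875 of untreated. The log2 difference of -0.82 to mutated PNA exceeded the control range of 0.44, and that of -0.19 to untreated did not. In 0.677% of all probe sets past the filter was mutated PNA at least 1.5-fold above both other arrays, as it was for IRS1. Its E-box lies after the annotated start.

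IRS2, whose gene is switched on by FOXO factors when insulin signalling is low, had 2 probe sets that do not share an order. 209184_s_at read 185 untreated, 199 with mutated PNA and 250 with anti-MYCN PNA. 209185_s_at read 358, 261 and 342, with mutated PNA lowest. All differences of either lay inside the control ranges of 0.67 and 0.60.

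Between the 2 controls, 2 of the 9 member probe sets past the filter were at least 1.5-fold higher in mutated PNA than in untreated cells, IGFBP5 and IRS1, and none was 1.5-fold lower. Over all probe sets past the filter the shares were 2.65% and 2.51%. None of the 9 was 2-fold higher or lower, against 0.364% and 0.465%. The comparisons of anti-MYCN PNA and of mutated PNA with untreated share the untreated array, which is also the one whose labels disagree.

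**Figure D2:**
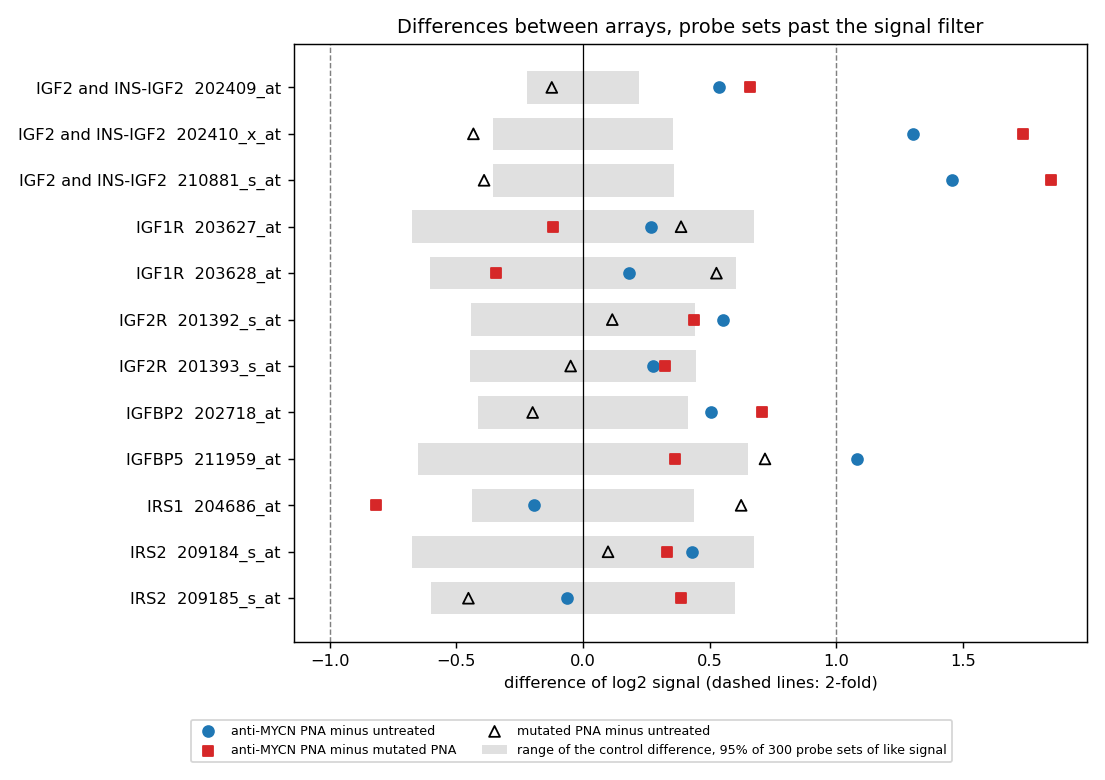
Differences of log2 signal between arrays (x axis) for the 12 probe sets past the filter, with 1 row per probe set; grey bars span the control range of 300 probe sets of like signal and dashed lines mark 2-fold. Only 202410_x_at and 210881_s_at lie past 2-fold against both controls; IGFBP2 and 202409_at lie outside the grey bar on both comparisons, and IRS1 against mutated PNA but not against untreated.

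Genes that act with the axis were followed by their brightest probe set past the filter. Of 32 further genes of the IGF axis 17 were measured. One, IGFBP7, was at least 2-fold below both controls and none 2-fold above, against 1.26% and 1.16% of all 6745 genes. At 1.5-fold 1 was higher and 5 lower, against 8.27% and 7.37% of all. IGFBP7, a secreted protein related to the binding proteins that also binds insulin, read 151 untreated, 147 with mutated PNA and 66.0 with anti-MYCN PNA.

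IGF2BP3, an RNA-binding protein named for its binding to IGF2 transcripts, read 1506 untreated, 1564 with mutated PNA and 840 with anti-MYCN PNA, and a second probe set gave 1361, 1408 and 782. Another, dimmer one gave 157, 155 and 137. The SHP2 phosphatase PTPN11 read 4089, 4369 and 2378, but by the median over its probe sets it was neither above nor below both controls. SOCS2, a suppressor of growth hormone signalling, read 288, 285 and 169, and the median over its probe sets lay at -0.08 from the nearer control. INSR, the insulin receptor and the one gene of the list at least 1.5-fold higher, read 131, 135 and 239. A dimmer INSR probe set went the other way, at 42.4, 53.5 and 8.1.

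IGF1, the other ligand, read at most 44.3 on any array in 4 probe sets, and INS at most 7.0 in 1. The median difference of the list from the controls' mean was 0.00, and that of all genes 0.06. Against mutated PNA alone the list's median was 0.28 and against untreated alone -0.28, so its direction depended on the control. Over all genes both medians were 0.06.

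Downstream of the adaptors, none of 24 measured genes of the PI3K, AKT and mTOR list was 1.5-fold from both controls in either direction. Of these, 19 lay above both controls and 4 below, against 47.9% and 37.6% of all genes, with a median of 0.28. AKT1, the kinase that PI3K activates, read 1157 untreated, 974 with mutated PNA and 1612 with anti-MYCN PNA, which makes a log2 difference of 0.48 to the nearer control; it is named as the list's central kinase, after its values were seen. When each array was scaled to the same median, the median of all genes moved from 0.06 to -0.13, and 12 of the 24 lay above both controls, against 32.0% of all genes. With quantile normalization 15 did, against 45.2%. Relative to all genes the list's median was 0.22 with either trimmed mean or median scaling.

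In the RAS, RAF, MEK and ERK list 8 of 11 measured genes lay above both controls, against 47.9% of all genes, with a median of 0.27. MAPK3, which encodes ERK1, was the one at least 1.5-fold higher, against 8.27% of all genes. It read 256, 208 and 398 by an _x_at probe set. With median scaling the count above both controls was 6 of 11, against 32.0% of all genes, and the list's median relative to all genes was 0.21 under either scaling.

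FOXO factors are held in the cytoplasm by AKT, and their target genes are transcribed when AKT is inactive. Of 17 measured FOXO factors and targets, 6 lay above both controls and 6 below, against 47.9% and 37.6% of all genes, with a median of -0.04. With median scaling 2 lay above and 12 below, while the share of all genes above both controls was 32.0% in place of 47.9%. That scaling lowers the whole array, and the share of all genes below both controls was not taken under it. The 12 therefore have no background to be set against. Relative to all genes the list's median was -0.11 under either scaling. RBL2, the pocket protein p130, was the one at least 1.5-fold lower, against 7.37% of all genes. It read 635 untreated, 576 with mutated PNA and 343 with anti-MYCN PNA. Between the controls this list had a median of 0.19 for mutated PNA minus untreated, against 0.00 over all genes. CCNG2, a cyclin that FOXO factors induce, named after its values were seen, read 1278, 2461 and 973 and so was highest on the mutated PNA array, as IRS1 was.

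The 5 genes past the filter from the chromosome band around IGF2 and H19 read higher on the anti-MYCN PNA array, each by less than 1.5-fold over the nearer control. Of 17 listed genes 14 had a probe set and 5 were measured, and 5 of 5 lay above both controls, against 47.9% of all genes, also with quantile normalization and with median scaling. Their median was 0.52, and that of the 14 genes without the filter 0.27. These genes were named after their values were seen: the troponin TNNI2 read 115, 160 and 231, the tetraspanin CD81 read 1833, 1666 and 2522, TSSC4 read 158, 184 and 245, the histone chaperone NAP1L4 read 1063, 1140 and 1356, and the mitochondrial ribosomal protein MRPL23 read 1621, 1658 and 1926.

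Other imprinted genes lay on both sides of the controls: 4 of 7 measured lay above both controls and 2 below, with a median of 0.09. Of all genes 47.9% lay above and 37.6% below. At 1.5-fold 2 of the 7 were higher and 0 lower, against 8.27% and 7.37% of all genes. MEG3, a maternally expressed long RNA, read 1078, 715 and 1648, at least 1.5-fold above both controls, but without _x_at and _s_at probe sets its difference to the nearer control was -0.21. GNAS, which encodes the stimulatory G protein subunit, read 20490, 19497 and 31852 and was in the range where signals were higher on this array as a whole; with quantile normalization its difference was 0.14. Among regulators of IGF2 and H19, 5 of 12 lay above both controls and 6 below, against the same shares of all genes, with a median of -0.06. IGF2BP3, already described, was the one at least 1.5-fold from both, on the lower side, against 7.37% of all genes. CTCF, the insulator protein at the H19 imprinting control region, read 1352, 1293 and 1130.

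**Figure D3:**
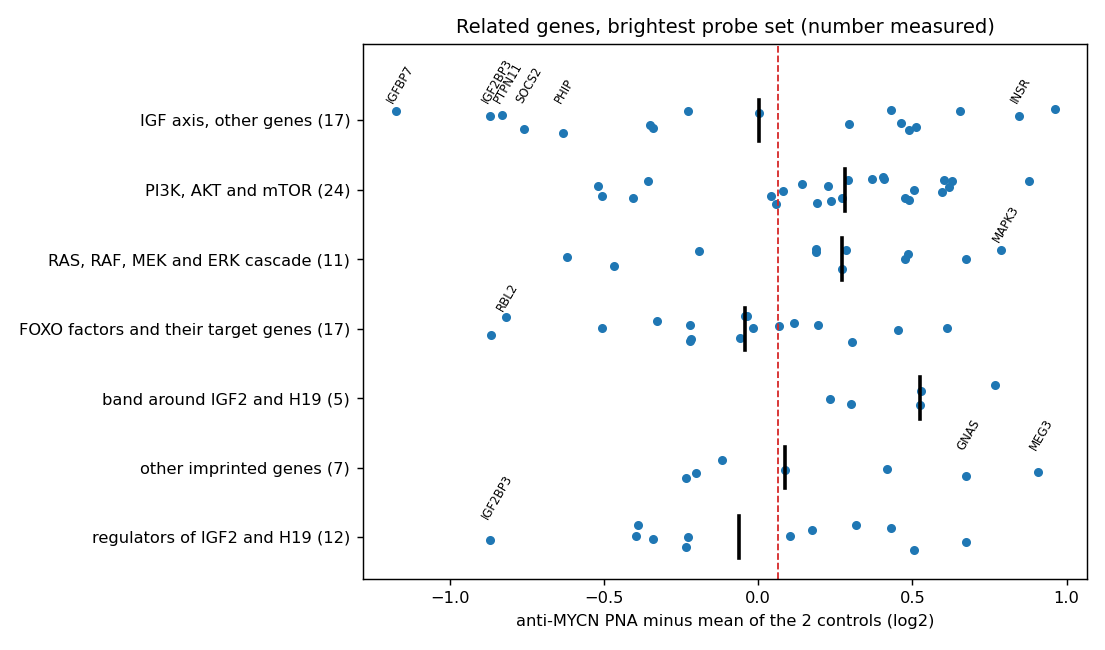
Difference of log2 signal between anti-MYCN PNA and the mean of the 2 controls (x axis) for each measured gene of the 7 lists, 1 point per gene; black bars are list medians, the red dashed line is the median of all 6745 genes, and genes at least 1.5-fold from both controls are named. The PI3K and RAS lists centre at 0.28 and 0.27, and the 5 genes of the band around IGF2 and H19 all lie to the right of the red line.

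Patterns like those of the IGF2 probe sets were looked for by Euclidean distance over the 3 arrays, between log2 signals centred on each probe set's own mean. For 202410_x_at the nearest of 6745 genes were ZNF580, LMBR1L, TMEM204, PKMYT1 and SHPK, at distances of 0.018 to 0.15, and 7 genes lay within 0.2. The same 5 genes were nearest to 210881_s_at, at 0.069 to 0.22, with 4 within 0.2. The filter takes the mean of all 3 arrays, so a dim gene could enter by being high on the anti-MYCN PNA array. LMBR1L read 107, 75.8 and 255 and TMEM204 83.0, 61.2 and 213, below 117 on both controls. SHPK read 119, 76.3 and 265. The likeness of such genes is in part fixed by the filter. For 202409_at 849 genes lay within 0.2, the nearest being SEC13, SMARCD2, TNIP2, FOXK2 and ZFAND3. No member gene was far enough from both controls by its brightest probe set to be searched this way.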

How the data were processed

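RNA of RH30 cells was measured on 3 Affymetrix arrays, 1 per condition, after one-cycle labelling (per the labels' protocols). The deposited intensities are linear signals per probe set; per the submitters' processing notes, the authors used MAS5 and GCOS; versions are not given in the sources used here. Their trimmed mean (2% off each end) was 500.2 on every array.

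Arrays were scaled to that mean, floored at the pooled 25th percentile (23.4) and put on the log2 scale; the filter was the pooled 50th percentile (117). Gene names come from GEO's platform annotation, in which 19064 of 22215 gene probe sets name 1 gene, 1043 several and 2108 none, updated by Entrez identifier through the RefSeq table of GRCh38.p14 (19052 matched). No test is possible with 1 array per condition, and precision is limited by the number of arrays. The members and lists were chosen with earlier results of these data known. Genes are named by rule: all members, MYCN, up to 4 genes per list and direction at least 1.5-fold from both controls, and the 5 nearest patterns; exceptions are stated. Alternatives changed the scaling, floor, filter, threshold and choice of probe sets. Python 3.11.15, numpy 2.4.6, pandas 2.3.3 and matplotlib 3.10.9 were used.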

Additional observations from a re-analysis of the deposited data

How the results depend on the processing

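No paired analysis was possible because each condition has 1 array and the replicate number 1 names no pair. Of 418 recomputed differences of single probe sets and named genes, 410 moved by less than 0.28, the SD of the control difference over all genes, and 8 by more; no difference of at least 2-fold changed sign. The 8 include 202409_at against mutated PNA under quantile normalization, at 0.29, and PHIP without _x_at and _s_at probe sets, at -0.21.

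The count of IGF2 and INS-IGF2 probe sets at least 2-fold above both controls, 2 as reported, was 0 with a 3-fold threshold and 0 without _x_at and _s_at probe sets, which leaves 202409_at alone. The count of members 2-fold higher was 1 without a filter. The median of anti-MYCN PNA minus mutated PNA over members was 0.15 with median scaling, against 0.33.

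Median scaling lowers the anti-MYCN PNA array as a whole, and the median of all genes went from 0.06 to -0.13. The list medians went with it, and relative to all genes each differed by less than 0.01 from its value as reported; unadjusted they were -0.19 for other IGF axis genes, 0.092 for PI3K, 0.083 for RAS, -0.23 for FOXO, 0.34 for the band around IGF2 and H19, -0.10 for other imprinted genes and -0.25 for regulators of IGF2. Without a filter the medians were 0.36 for other IGF axis genes, 0.27 for the band, 0.19 for other imprinted genes and -0.23 for the regulators. A filter at the 75th percentile gave -0.34 for other IGF axis genes, 0.40 for PI3K, 0.30 for the band and 0.10 for the regulators. Without _x_at and _s_at probe sets they were 0.15 for other IGF axis genes, 0.082 for PI3K, -0.27 for FOXO, 0.65 for the band (2 genes left), -0.016 for other imprinted genes and 0.10 for the regulators. The median over probe sets gave 0.19 for other IGF axis genes, and quantile normalization -0.069 for other imprinted genes.

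The count of other IGF axis genes at least 2-fold from both controls, 1 as reported, was 2 with median scaling and 2 without a filter; 0 with a pseudocount, a filter at the 75th percentile, a 3-fold threshold and without _x_at and _s_at probe sets; and 6 at 1.5-fold. For lists with a count of 0, no filter gave 1 for RAS, 1 for the band and 2 for other imprinted genes, 1.5-fold gave 1 for RAS, 1 for FOXO, 2 for other imprinted genes and 1 for the regulators, and median scaling gave 1 for the regulators. With 1 array per condition and no detection calls used, signals near the floor cannot be told from background. Where the number of genes or samples does not itself account for a shift, the cause was not tested.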
